A study of Homo sapiens with 15 samples.

Results

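The genes of the respiratory chain and the ATP synthase were followed in THP-1 cells, a human line of leukemia monocytic cells, after incubation with bacterial extracellular vesicles (BEVs). Members were the protein-coding genes whose symbols start with MT-, NDUFA, NDUFB, NDUFC, NDUFS, NDUFV, UQCR, COX4, COX5, COX6, COX7, COX8 or ATP5, together with SDHA, SDHB, SDHC, SDHD and CYC1. Genes of the NDUFAF family, which help to assemble complex I, were left out of the members. This gave 104 members among the 60286 genes of the count table, of which 19950 are protein-coding. Of the members, 91 are nuclear genes and 13 are genes of the mitochondrial DNA (MT members). Complex I has 38 nuclear and 7 MT members, complex II 4 and 0, complex III 10 and 1, complex IV 19 and 3, and complex V 20 and 2.

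The 15 RNA libraries fall into 5 groups of 3, all from cells of genotype WT. Control cells were given PBS. The others were given E. coli BEVs at 1 μg/mL, obtained by ultracentrifugation (EUC) or with epsilon-poly-L-lysine (EPL), or S. aureus BEVs at 10 μg/mL, obtained in the same manners (SUC, SPL). The dose differed with the species, so an effect of species and an effect of dose cannot be told apart. Cells were incubated for 6 hours by the study's methods, while the label of time reads Day 0. The study describes triplicates of cells for each group, with BEVs added to wells, but does not state whether these were separate cultures. The p-values therefore measure the spread between these libraries, which may be technical. All 15 libraries are from this 1 cell line.

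Complexes I to IV pass electrons from NADH and succinate to oxygen and most of them pump protons across the inner mitochondrial membrane, and complex V, the ATP synthase, uses the proton gradient to make ATP. A few core subunits of complexes I, III, IV and V are encoded by the mitochondrial DNA, which is transcribed inside the organelle into long RNAs that are cut into mRNAs, tRNAs and rRNAs. All other subunits, including every subunit of complex II, are encoded in the nucleus and imported, so a working chain needs products of both genomes. Stimulated monocytes and macrophages are known for shifting their metabolism toward glycolysis.

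Values are given in CPM, read counts as parts of 1e+06 of the library size after TMM normalization, or as RPKM, which is CPM per kilobase of exon, where genes are compared with each other. A gene passed the test at an adjusted p of at most 0.01 in the quasi-likelihood test of edgeR, with adjustment by Benjamini and Hochberg over all 17198 tested genes. Of the 104 members, 96 had enough counts to be tested, all 13 MT members and 83 nuclear members. The 8 others were COX4I2, COX6A2, COX6B2, COX7B2, COX8C, ATP5MGL and the read-through genes ATP5MF-PTCD1 and NDUFC2-KCTD14. Each library held between 14399421 and 16637345 counted reads. The 8 markers of monocytic cells (CD14, CD33, CD68, LYZ, SPI1, CSF1R, ITGAM and FCGR1A) summed to 1001 to 1022 CPM in PBS and 1477 to 2002 CPM in the BEV groups, and each had counts in every group. Of the 7 that were tested, CD14, SPI1 and CSF1R passed as higher in each comparison and 2 passed as lower, CD33 and LYZ in EUC, SUC and SPL and CD33 and FCGR1A in EPL. CD68 drew 18 counts in all and was not tested. SPI1 made up most of the higher sum, with means of 471 CPM in PBS and 960 to 1198 CPM in the BEV groups. Epithelial markers (EPCAM, KRT18, CDH1) reached at most 0.384 CPM, B cell markers 5.43 CPM, and fibroblast markers (COL1A1, COL1A2, DCN) 0.640 to 0.941 CPM in PBS and 2.06 to 6.96 CPM in the BEV groups. T cell markers summed to 269 to 318 CPM and endothelial markers to 209 to 309 CPM, and both lists hold a gene that monocytic cells also express (CD4 and PECAM1). The 2 tested fibroblast markers passed as higher in each comparison, with median log2 fold changes of 3.02 to 4.15. Of the 2 tested endothelial markers, 1 passed as lower in SUC and 1 in SPL. The 1 tested B cell marker passed as lower in EUC, and the 1 tested T cell marker passed nowhere. The part of these markers in the results below was not tested.

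In libraries EUC3, EPL1 and SUC3, genes with long exons were low and genes with short exons were high relative to the other libraries of their group. Over 10347 genes with a mean of at least 100 counts, the deviation from the group mean correlated with log2 exon length at r = -0.50 in EUC3, -0.49 in EPL1 and -0.51 in SUC3, against -0.26 to 0.48 in the other libraries. Sums, medians over members and counts of members that passed are given with and without these libraries.

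The RNAs of the mitochondrial genome stood higher in BEV-treated cells than in control cells, whereas the summed RNAs of the nuclear members did not separate from the controls when all libraries were kept. The 13 MT members summed to 29850, 32680 and 31630 CPM in PBS. They summed to 37770, 38540 and 40630 CPM for EUC, 39510, 38080 and 38140 CPM in EPL, 37420, 39380 and 34800 CPM for SUC, and 38800, 37880 and 38540 CPM in SPL. Every BEV library was above every PBS library, with the lowest value in SUC3. The group mean was 1.24 times that of PBS in EUC, 1.23 times in EPL, 1.19 times for SUC and 1.22 times in SPL.

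The 91 nuclear members summed to 6705, 7203 and 7458 CPM in PBS, 5678, 6544 and 8659 CPM for EUC, 6896, 5793 and 5734 CPM in EPL, 6327, 6848 and 8604 CPM for SUC, and 6390, 7059 and 6271 CPM in SPL. The BEV libraries lay on both sides of the controls, and EUC3 and SUC3 were the highest of all 15. The mean was 0.977 times that of PBS in EUC, 0.862 times in EPL, 1.02 times for SUC and 0.923 times in SPL. Without EUC3, EPL1 and SUC3 it was 0.858 times in EUC, 0.809 times in EPL and 0.925 times for SUC, and the remaining EUC and EPL libraries lay below every control, while the MT sums were at 1.22, 1.21 and 1.22 times. As a share of all counts, without normalization between libraries, MT members made up 3.24% to 3.50% in PBS and 3.33% to 3.93% in the BEV libraries. On this scale the ranges overlapped through SUC3 alone (3.33%), and every other BEV library was at 3.715% to 3.928%. Nuclear members made up 0.728% to 0.795% in PBS and 0.565% to 0.823% in the BEV libraries.

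The ratio of MT to nuclear counts needs no scaling between libraries. Its log2 was 2.15, 2.18 and 2.08 in PBS, 2.73, 2.56 and 2.23 in EUC, 2.52, 2.72 and 2.73 in EPL, 2.56, 2.52 and 2.02 for SUC, and 2.60, 2.42 and 2.62 in SPL. All BEV libraries except SUC3 were above every PBS library. The mean was higher than in PBS by 0.37 in EUC, 0.52 in EPL, 0.23 for SUC and 0.41 in SPL, on the log2 scale. These are descriptions without a test. In SUC the difference was 0.40 without SUC3, 0.13 without SUC1 and 0.15 without SUC2, and the SD within SUC was 0.31 (n = 3).

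**Figure D1:**
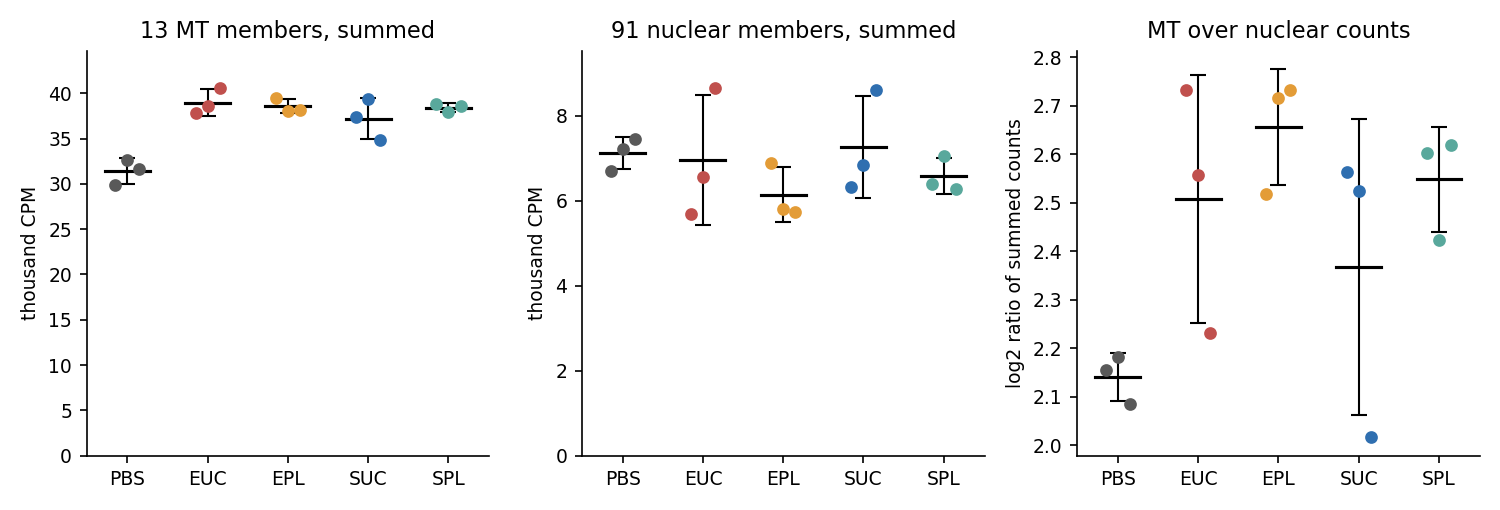
Summed CPM, in units of 1000, of the 13 MT members (left) and the 91 nuclear members (middle), and the log2 ratio of their summed counts (right), in each library of the 5 groups. Points are libraries, horizontal lines are means and bars are SD (n = 3); the MT sums of the BEV groups (34800 to 40630 CPM) sit above those of PBS (29850 to 32680 CPM), and the ratio of SUC3 (2.02) is the only BEV value below the PBS values.

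All 13 MT members had a log2 fold change above 0 in EUC, EPL and SUC, and 12 of 13 did in SPL, where MT-ATP8 was at -0.17. The median over the 13 was 0.30 in EUC, 0.30 in EPL, 0.25 for SUC and 0.29 in SPL, beside medians over all tested genes of 0.0008, -0.0008, 0.0067 and -0.0065. MT members that passed the test were all higher than in PBS. They numbered 7 in EUC, 6 in EPL, 2 for SUC and 5 in SPL, and 0 passed as lower. Over all tested genes, 16.5% passed as higher in EUC, 16.0% in EPL, 12.4% for SUC and 13.3% in SPL. In SUC 2 of 13 MT members was a share near this background. The groups did not overlap, with BEV libraries higher, for 10 MT members in EUC, 10 in EPL, 7 for SUC and 11 in SPL. Over all tested genes this held for 25.9%, 26.2%, 24.2% and 26.9%. The 4 comparisons share the PBS libraries, and the number of MT members that passed depended on single libraries. PBS1 was the lowest control for 11 MT members, and without it 0 passed in EUC, 0 in EPL, 0 for SUC and 1 in SPL. Of 17658 tested genes in that fit, 2424, 2356, 1758 and 1940 passed as higher. Without PBS3 the numbers of MT members were 4, 2, 0 and 2, beside 2435, 2335, 1774 and 1898 of 17640 tested genes as higher. In EPL 2 MT members passed without EPL2 and 3 without EPL3, beside 2387 of 17691 and 2448 of 17635 tested genes as higher. In SUC 1 MT member passed without PBS2, 0 without SUC1 or SUC2 and 6 without SUC3. Of all tested genes, 1781 of 17666 passed as higher without PBS2 and 1901 of 17709 without SUC1. The numbers were 1891 of 17702 without SUC2 and 1925 of 17720 without SUC3. In SPL 2 MT members passed without SPL1, 3 without SPL2 and 3 without SPL3. Beside them 1994 of 17702, 2031 of 17707 and 2008 of 17722 tested genes passed as higher. Without EUC3, EPL1 and SUC3 together, 12, 11, 13 and 11 MT members passed, beside 19.5%, 20.5%, 16.0% and 18.4% of all genes as higher. The MT medians in that fit were 0.30, 0.28, 0.31 and 0.30. With the exon length trend of each library removed, 0 MT members passed in EUC, 1 in EPL, 0 for SUC and 0 in SPL, beside 17.5%, 16.4%, 13.5% and 14.2% of all genes as higher, and the medians were 0.13, 0.22, 0.08 and 0.19. With scaling by total counts, 0, 1, 0 and 1 passed, beside 12.8%, 13.0%, 10.2% and 11.0% of all genes as higher.

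MT-ND1 (ENSG00000198888, chrM:3307-4262), a membrane subunit of complex I at which quinone enters the enzyme, passed in all 4 comparisons. It had 2977, 3230 and 3081 CPM in PBS, 3765, 3796 and 3829 CPM for EUC, 3770, 3754 and 3720 CPM in EPL, 3688, 3775 and 3496 CPM for SUC, and 4058, 3947 and 3843 CPM in SPL. Every BEV library was above every PBS library. The log2 fold change was 0.29 ± 0.06 (SE) in EUC, 0.28 ± 0.06 in EPL, 0.24 ± 0.06 for SUC and 0.35 ± 0.06 in SPL, with adjusted p = 0.00139, 0.00244, 0.00902 and 0.000373 in edgeR's test.

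MT-ND6 (ENSG00000198695, chrM:14149-14673), also a membrane subunit of complex I, is the only MT member on the minus strand. It had 409, 513 and 466 CPM in PBS, 571, 627 and 701 CPM for EUC, 674, 597 and 601 CPM in EPL, 617, 610 and 599 CPM for SUC, and 644, 566 and 570 CPM in SPL. No BEV library reached down to the controls. It rose by 0.45 ± 0.10 on the log2 scale in EUC, 0.43 ± 0.10 in EPL, 0.40 ± 0.10 for SUC and 0.36 ± 0.10 in SPL, with adjusted p = 0.00109, 0.00165, 0.00427 and 0.00783 in edgeR's test. The strand setting of the counting is not given in the sources used here, and RNA of MT-ND6 and RNA of the opposite strand at that place cannot be told apart.

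MT-ND2 and MT-ND4, further proton-pumping membrane subunits of complex I, and MT-CYB, the cytochrome b of complex III, passed in EUC, EPL and SPL. MT-ND2 (chrM:4470-5511) had 1683 to 1947 CPM in PBS and rose by 0.34 ± 0.08 in EUC, 0.36 ± 0.08 in EPL and 0.37 ± 0.08 in SPL on the log2 scale, while SUC gave 0.25 ± 0.08 at an adjusted p of 0.0207 in edgeR's test. MT-ND4 (chrM:10760-12137) had 4355 to 4841 CPM in PBS, and 5579, 5574 and 5426 CPM in EUC. MT-CYB (chrM:14747-15887) had 1672, 1791 and 1691 CPM in PBS, 2180, 2177 and 2097 CPM for EUC, and 2087, 2113 and 1744 CPM in SUC. SUC3 alone among the BEV libraries lay within the PBS range for MT-CYB, MT-ND4 and MT-ATP6.

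MT-CO1, MT-CO2 and MT-CO3, the core subunits of cytochrome c oxidase, had no overlap between PBS and any BEV group. MT-CO1 (chrM:5904-7445), the subunit with the oxygen-binding site, was the most abundant member of all, with 8674, 8972 and 9222 CPM in PBS, 10750, 10900 and 11330 CPM for EUC, 10950, 10770 and 10980 CPM in EPL, 10290, 11370 and 9806 CPM for SUC, and 10750, 10130 and 10920 CPM in SPL. It rose by 0.30 ± 0.07 in EUC (adjusted p = 0.00275) and 0.28 ± 0.07 in EPL (adjusted p = 0.00393) in edgeR's test, and was at 0.23 ± 0.07 for SUC and 0.24 ± 0.07 in SPL without passing. MT-CO3 (chrM:9207-9990) passed in EUC only, at 0.42 ± 0.11, and MT-CO2 (chrM:7586-8269) in none, at 0.28 to 0.38. The difference between the comparisons was not called for any of these genes when the BEV groups were tested against each other.

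The remaining MT members passed nowhere. MT-ND3 (chrM:10059-10404), a small complex I subunit, had the highest estimate in EUC and SPL, 0.59 ± 0.17 and 0.42 ± 0.17, with a wide spread of 649, 837 and 1145 CPM in EUC. MT-ATP6 (chrM:8527-9207), the subunit of the proton channel of complex V, was at 0.18 to 0.26. MT-ND5 (chrM:12337-14148) and MT-ND4L (chrM:10470-10766) were low in the libraries with the exon length trend. MT-ND5 had 1792, 1830 and 1609 CPM in PBS and 1409, 1540 and 1332 CPM in EUC3, EPL1 and SUC3, but 1982 to 2354 CPM in the 9 other BEV libraries. MT-ND4L had 208 to 258 CPM in PBS and 165, 190 and 174 CPM in those 3 libraries. The exon of MT-ND5 has 1812 bases and that of MT-ND4L 297 bases.

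**Figure D2:**
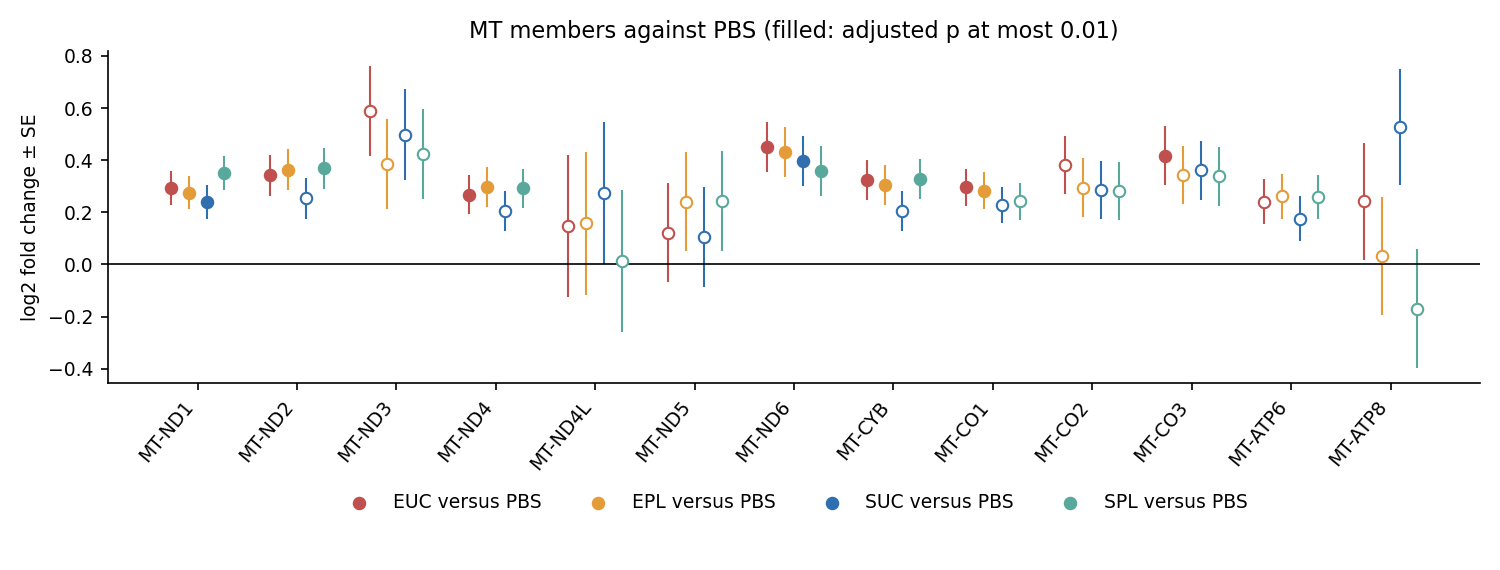
Log2 fold change against PBS with its standard error for each of the 13 MT members, in edgeR's fit over all 15 libraries. Colours are the 4 BEV groups, and filled points passed the test (adjusted p of at most 0.01); MT-ND1 and MT-ND6 are filled in all 4 comparisons, and MT-ATP8 in SPL (-0.17) is the only estimate below 0.

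MT-ATP8 (chrM:8366-8572), a small subunit of complex V, had the lowest RPKM of the MT members. It was at 144 RPKM averaged over all libraries, against 3123 RPKM for MT-ATP6 and 884 to 6737 RPKM for the other MT members. Whether this gap comes from the amount of RNA or from the counting of reads was not tested. Its values were 20.7, 36.9 and 23.4 CPM in PBS and 19.7 to 49.3 CPM in the BEV libraries, so the groups overlapped. Its last bases are also the first bases of MT-ATP6. The 46 shared bases at chrM:8527-8572 of hg38 are shown because a read within them belongs to both genes, which makes the counts of MT-ATP8 uncertain. Capitals mark the start codon of MT-ATP6, and the bases after it run to the end of MT-ATP8.
MT-ATP8 and MT-ATP6 overlap: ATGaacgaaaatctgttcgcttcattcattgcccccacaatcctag
The overlap makes up 22.2% of MT-ATP8. MT-ND4L and MT-ND4 share 7 bases at chrM:10760-10766 in the same manner. Without the genes that overlap, the log2 ratio of MT to nuclear counts in SUC differed from PBS by 0.24.

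The RNAs of the mitochondrial ribosome, which are copied from the same DNA and are not members, were higher as well. MT-RNR1, the rRNA of the small subunit, had 279, 301 and 300 CPM in PBS and 399 to 517 CPM in the BEV libraries. It rose by 0.74 ± 0.08 in EUC, 0.69 ± 0.08 in EPL, 0.53 ± 0.08 for SUC and 0.49 ± 0.08 in SPL on the log2 scale, with adjusted p = 8.87e-07, 2.38e-06, 6.32e-05 and 0.000118 in edgeR's test. MT-RNR2, the rRNA of the large subunit, had 4007, 4082 and 3983 CPM in PBS and 5467 to 6349 CPM in the BEV libraries, and rose by 0.48 to 0.60. The summed rRNA was 1.53 times that of PBS in EUC, 1.52 times in EPL, 1.42 times for SUC and 1.40 times in SPL. Nuclear copies of mitochondrial sequence are near-identical to the MT members in places, and 431 annotated pseudogenes of them drew 1.23% to 1.68% as many reads as the MT members, so reads exchanged with these copies are a further uncertainty.

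Few nuclear members passed the test, and none in the S. aureus groups. In EUC 2 of 83 tested nuclear members passed as higher and 0 as lower, in EPL 0 and 4, in SUC 0 and 0, and in SPL 0 and 0. Over all tested genes 14.0% passed as lower in EUC, 13.2% in EPL, 9.15% for SUC and 10.6% in SPL. At an unadjusted p of at most 0.05, 16 nuclear members passed in EUC, 21 in EPL, 8 for SUC and 10 in SPL, beside 48.1%, 47.1%, 40.4% and 42.2% of all tested genes. DESeq2 at the same adjusted threshold gave 3, 8, 0 and 2. Of 37067 genes it called 3094 as higher and 2449 as lower in EUC, and 2956 and 2336 in EPL. For SUC the numbers were 2341 and 1703, and in SPL 2510 and 1911. No member, nuclear or MT, reached a log2 fold change of 1 in size together with the threshold, the rule for a DEG in the study, against 15.2% of all tested genes in EUC, 14.5% in EPL, 9.88% for SUC and 11.5% in SPL. The count of DEGs among members was also 0 with DESeq2. The median log2 fold change of the nuclear members was 0.07 in EUC, -0.17 in EPL, 0.13 for SUC and -0.05 in SPL. Single libraries decided its sign in EUC and SUC. Without EUC3 the EUC median was -0.13 with 23 of 83 above 0, against 46 with it, and without SUC3 the SUC median was -0.02 with 38 above 0, against 56. The medians without EUC3, EPL1 and SUC3 were -0.13, -0.24, -0.01 and -0.05. The EUC median was also below 0 with total counts (-0.10) and with the length trend removed (-0.02).

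Separation of the groups was also counted without a test. In EPL 24 nuclear members had every BEV library below every PBS library and 1 (NDUFV2) above, and in SPL these numbers were 20 and 5. In EUC they were 7 and 3, and in SUC 4 and 9. Over all tested genes 25.0% did not overlap on the low side in EUC, 25.9% in EPL, 22.4% for SUC and 27.5% in SPL. EPL at 28.9% and SPL at 24.1% of nuclear members were near this background. The 7 nuclear members of EUC (8.43%) and the 4 of SUC were below it. On the high side 25.9% of all tested genes did not overlap in EUC, 26.2% in EPL, 24.2% for SUC and 26.9% in SPL. The share of nuclear members on that side was lower in every group. Without EUC3, EPL1 and SUC3 the nuclear members that passed as lower numbered 24 in EUC, 30 in EPL, 13 for SUC and 11 in SPL, and those as higher 2, 0, 1 and 2. In that fit 18.5%, 19.3%, 13.1% and 16.8% of all tested genes passed as lower, and 19.5%, 20.5%, 16.0% and 18.4% as higher. Leaving out single libraries also moved the count of nuclear members. In EUC 0 passed without PBS1, PBS2 or EUC2, 1 without PBS3, 4 without EUC1 and 7, all lower, without EUC3. Of 17640 to 17701 tested genes, 2420 to 2813 passed as higher in these fits and 1886 to 2386 as lower. In EPL 10 nuclear members passed without EPL1, 1 without PBS1 and 0 without any other 1 of its libraries or the PBS libraries. Without EPL1, 2670 of 17715 tested genes passed as higher and 2272 as lower. In the other fits of EPL 2335 to 2448 of 17635 to 17691 tested genes passed as higher and 1758 to 1836 as lower. In SUC 1 nuclear member passed without SUC3, beside 1925 of 17720 tested genes as higher and 1303 as lower.

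**Figure D3:**
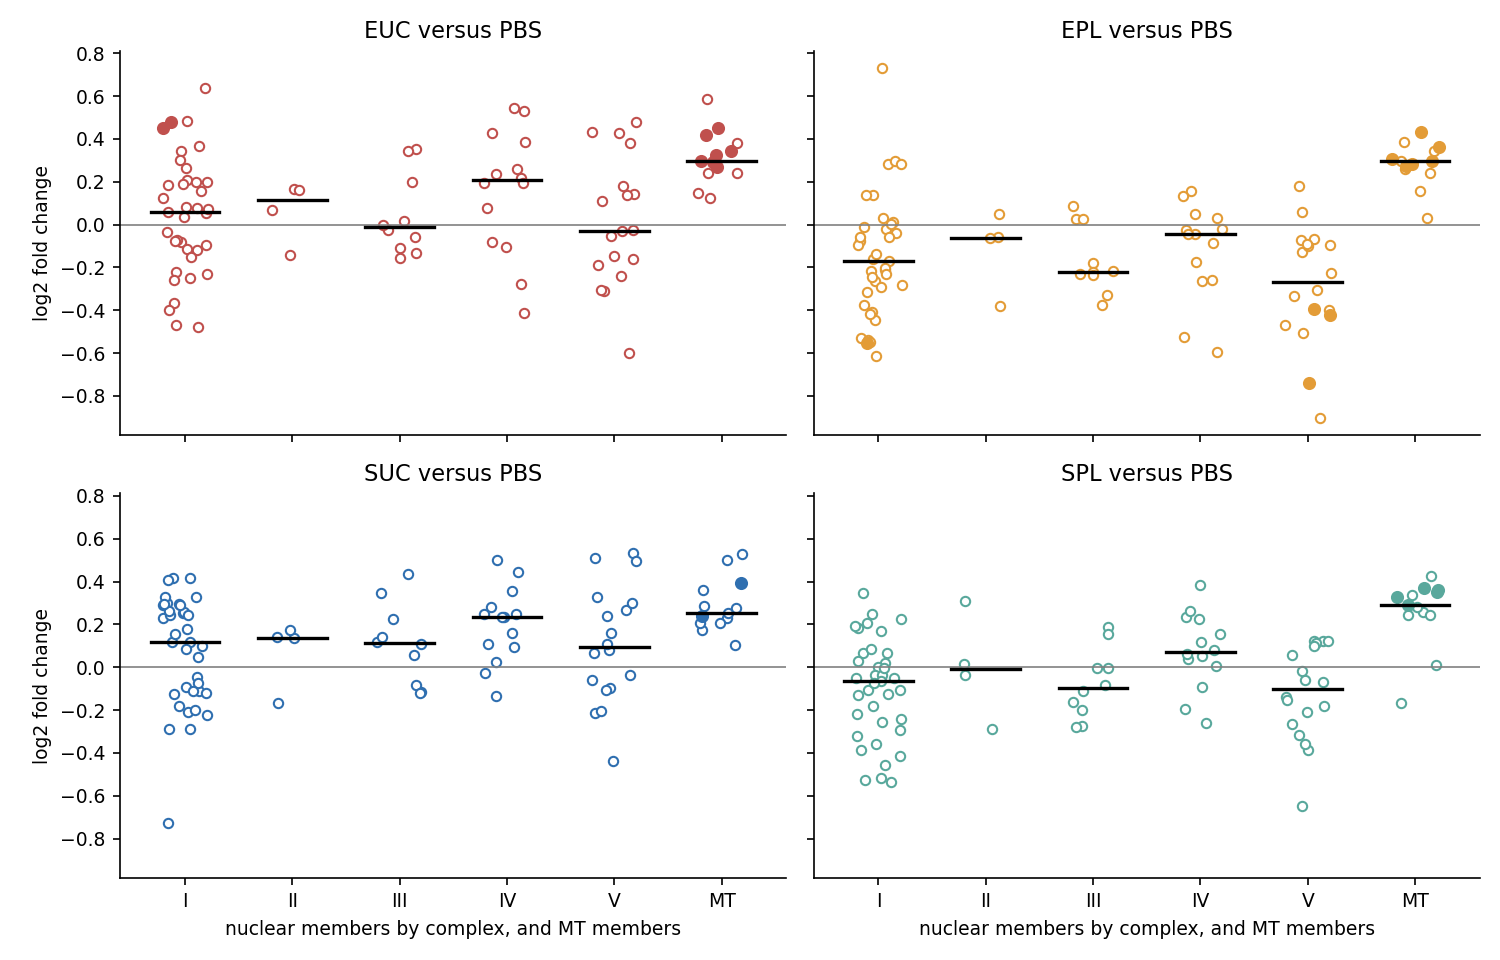
Log2 fold change against PBS of the tested nuclear members of complexes I to V and of the 13 MT members, 1 panel for each BEV group. Each point is a gene, filled where it passed the test, horizontal spread within a column has no meaning and lines are medians; nuclear members lie on both sides of 0 with medians of -0.17 in EPL to 0.13 for SUC, and the MT medians lie between 0.25 and 0.30.

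Complex V held 3 of the 4 nuclear members that fell in EPL, all of them parts of its catalytic F1 head. ATP5F1D (ENSG00000099624, chr19:1241746-1244825), the delta subunit of the central stalk, had 152, 165 and 167 CPM in PBS, 90.6, 96.9 and 132 CPM for EUC, 124, 85.6 and 79.1 CPM in EPL, 91.2, 110 and 155 CPM for SUC, and 108, 101 and 99.1 CPM in SPL. All BEV libraries but SUC3 lay below the controls. It fell by 0.74 ± 0.18 on the log2 scale in EPL (adjusted p = 0.00393 in edgeR's test) and was at -0.60 ± 0.18 in EUC, -0.44 ± 0.18 for SUC and -0.65 ± 0.18 in SPL, with adjusted p = 0.0151, 0.0833 and 0.0115 by the same method.

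ATP5F1B (ENSG00000110955, chr12:56638175-56645984), the catalytic beta subunit, was the most abundant nuclear member at 329 ± 8.34 RPKM in PBS (SD, n = 3). It had 714, 747 and 746 CPM in PBS, 522, 587 and 680 CPM for EUC, 616, 527 and 539 CPM in EPL, 578, 635 and 702 CPM for SUC, and 595, 639 and 601 CPM in SPL, and no BEV library reached the controls. It fell by 0.39 ± 0.10 in EPL (adjusted p = 0.00405 in edgeR's test). ATP5F1A (ENSG00000152234, chr18:46080248-46104334), the alpha subunit that forms the ring with it, had 478, 497 and 517 CPM in PBS and 408, 346 and 359 CPM in EPL and fell by 0.42 ± 0.12 (adjusted p = 0.00769).

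ATP5F1E, the epsilon subunit of the same head, went against them with 77.7, 86.1 and 92.7 CPM in PBS and 103, 109 and 159 CPM in SUC, at 0.53 ± 0.20 without passing. It shares 23.2% of its exon bases with TUBB1 on the opposite strand. Of the 5 subunits of the head, a group chosen after the values were seen, 4 were below 0 in each comparison, with medians of -0.30 in EUC, -0.39 in EPL, -0.21 for SUC and -0.27 in SPL. The 13 other tested nuclear members of complex V had medians of 0.11, -0.13, 0.16 and -0.06. The medians of the head without EUC3, EPL1 and SUC3 were -0.41, -0.46, -0.27 and -0.26 and those of the 13 others -0.12, -0.29, 0.03 and -0.06.

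Complex I held the other called nuclear members. NDUFB10 (ENSG00000140990, chr16:1959538-1961975), an accessory subunit of the membrane arm, had 71.0, 74.0 and 79.5 CPM in PBS, 45.0, 48.7 and 68.6 CPM for EUC, 58.7, 46.7 and 47.8 CPM in EPL, 54.0, 56.2 and 73.3 CPM for SUC, and 48.7, 58.5 and 49.6 CPM in SPL. Only SUC3 reached into the PBS range. It fell by 0.55 ± 0.15 in EPL (adjusted p = 0.00735 in edgeR's test).

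NDUFB4 (ENSG00000065518, chr3:120596328-120602507), also an accessory subunit of the membrane arm, had 77.0, 86.6 and 81.3 CPM in PBS, 93.3, 108 and 140 CPM for EUC, 113, 98.5 and 85.8 CPM in EPL, 103, 91.2 and 113 CPM for SUC, and 88.7, 101 and 96.0 CPM in SPL. Of the BEV libraries only EPL3 lay within the PBS range. It rose by 0.48 ± 0.13 in EUC (adjusted p = 0.00790), and was at 0.30 (adjusted p = 0.0507) without EUC3, in edgeR's test. NDUFV3 (ENSG00000160194, chr21:42879644-42913304), an accessory subunit of the NADH-binding part, had 57.8, 60.5 and 70.3 CPM in PBS and 76.4, 85.6 and 95.9 CPM in EUC. It rose by 0.45 ± 0.12 (adjusted p = 0.00453), and without EUC3 it was at 0.36 (adjusted p = 0.0210). Leaving out a library could end each of these 6 calls. NDUFB4 did not pass without any 1 of the PBS libraries, EUC2 or EUC3 (0.30 to 0.53), and NDUFV3 without PBS1, PBS2, EUC2 or EUC3 (0.36 to 0.46). ATP5F1D did not pass without PBS2, PBS3, EPL2 or EPL3 (-0.73 to -0.62). NDUFB10 (-0.59 to -0.49), ATP5F1A (-0.45 to -0.38) and ATP5F1B (-0.41 to -0.35) did not pass without any 1 of the PBS libraries, EPL2 or EPL3. All 6 passed without EUC3, EPL1 and SUC3 together.

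**Figure D4:**
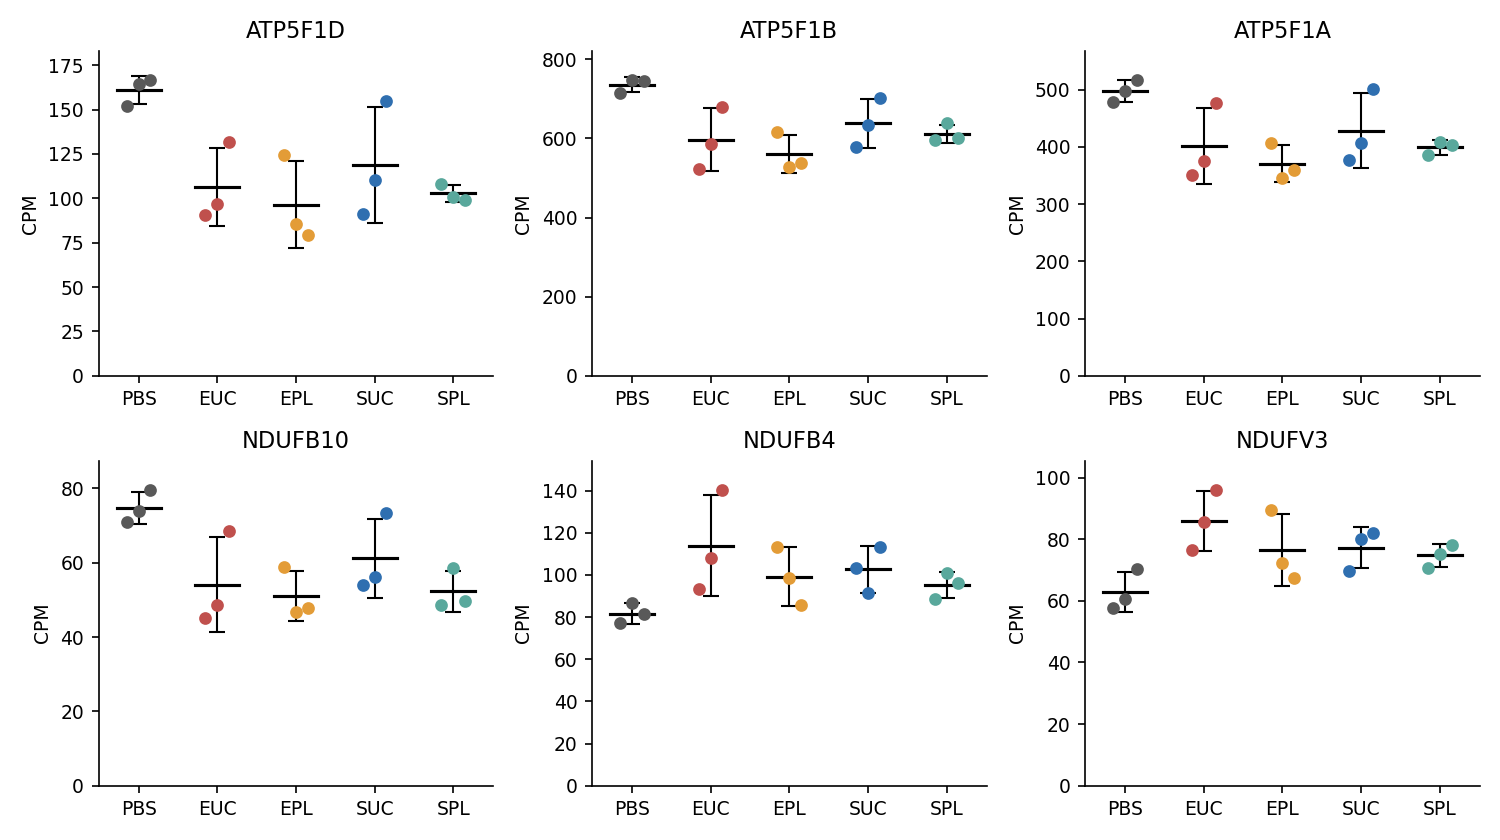
CPM in each library for the 6 nuclear members that passed the test against PBS in EUC (NDUFB4 and NDUFV3, higher) or EPL (ATP5F1D, ATP5F1B, ATP5F1A and NDUFB10, lower). Points are libraries, lines are means and bars are SD (n = 3), with axes starting at 0; ATP5F1B has all 12 BEV libraries (522 to 702 CPM) below the 3 PBS libraries (714 to 747 CPM).

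The 7 nuclear core subunits of complex I, which carry its flavin and iron-sulfur clusters, had medians of -0.25 in EUC, -0.42 in EPL, -0.20 for SUC and -0.29 in SPL, with 6 of 7 below 0 in each. The 30 tested accessory nuclear subunits had medians of 0.08, -0.15, 0.20 and -0.04. In the core the medians without EUC3, EPL1 and SUC3 were -0.37, -0.59, -0.31 and -0.29 and those of the accessory subunits -0.12, -0.20, 0.04 and -0.04. None of the 7 passed the test with all libraries. NDUFV2, an iron-sulfur subunit, was the exception among the core and had the highest estimates of complex I in EUC (0.64 ± 0.27) and EPL (0.73 ± 0.26), at only 468 counts over all libraries. NDUFS7, another iron-sulfur subunit, had the lowest estimate of all nuclear members in SUC, with 6.02, 4.71 and 5.19 CPM in PBS, 3.14, 2.69 and 3.76 CPM for SUC and a log2 fold change of -0.73 ± 0.21 there (adjusted p = 0.0126 in edgeR's test). NDUFS7 shares 51.4% and NDUFV2 28.4% of their exon bases with other annotated genes. NDUFS5 was the most abundant nuclear member of complex I per length, at 136 ± 13.2 RPKM in PBS (SD, n = 3), and lay between -0.06 and 0.26.

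In complex II, succinate dehydrogenase, no member passed in any comparison. SDHC, a membrane anchor and its most abundant member, had 83.3, 82.6 and 82.0 CPM in PBS and 76.5 to 104 CPM in the BEV libraries. SDHB, the iron-sulfur subunit, had 64.4, 62.5 and 64.9 CPM in PBS and 54.3, 47.2 and 46.0 CPM in EPL, with -0.38 ± 0.16 (adjusted p = 0.0666 in edgeR's test). SDHA, the flavoprotein, had 5.31 to 6.20 CPM in PBS and 4.53 to 8.05 CPM in the BEV libraries, and 21.7% of its exon bases are shared with another gene.

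Complex III members did not pass either. UQCRH, the hinge subunit, led its complex at 218 ± 14.1 RPKM in PBS and had log2 fold changes of -0.23 to 0.14. CYC1, which holds cytochrome c1, had 348, 355 and 370 CPM in PBS and 281 to 364 CPM in the BEV libraries, with the lowest estimate in EPL (-0.22 ± 0.10). UQCRB, a small subunit near the quinone site, had 104, 119 and 130 CPM in PBS and 136, 140 and 202 CPM in SUC, at 0.44 ± 0.19.

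Of the nuclear members of complex IV, 14 were tested and none passed. COX7A2, a small structural subunit, led these members at 106 RPKM averaged over all libraries. In PBS it stood at 90.9 ± 7.46 RPKM, below COX5A at 101 ± 4.36 RPKM. The log2 fold changes of COX7A2 were 0.13 to 0.39. COX6C was highest in EUC3 (129 CPM) and SUC3 (120 CPM), against 57.9 to 71.1 CPM in PBS and 63.6 to 94.0 CPM in the other BEV libraries. COX5B, a zinc-binding subunit, had 87.6, 97.5 and 106 CPM in PBS and 79.8, 63.5 and 59.1 CPM in EPL, at -0.53 ± 0.19 (adjusted p = 0.0321 in edgeR's test).

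Several subunits exist as paralogs used in different tissues or conditions, and THP-1 cells held mainly one form of most pairs. COX4I1 stood at 55.3 ± 4.09 RPKM in PBS (SD, n = 3), whereas COX4I2 drew 4 counts in all 15 libraries. COX6B1 stood at 67.9 ± 4.73 RPKM against 0.0543 ± 0.00794 for COX6B2, the form of testis, and COX8A at 43.8 ± 6.09 against 0.370 ± 0.157 for COX8C. COX6A1 stood at 4.75 ± 0.807 RPKM and COX7B at 17.9 ± 1.61, while COX6A2, the form of heart and skeletal muscle, and COX7B2 had 0 counts in every library, which allows up to 3 counts in all. COX7A2 (90.9 RPKM) exceeded COX7A2L (11.9 ± 0.549), and COX7A1, the form of muscle, was at 0.946 ± 0.562. NDUFA4 stood at 23.3 ± 1.07 RPKM against 2.23 ± 0.566 for NDUFA4L2, a gene known to be induced by hypoxia. The genes of the c-ring of complex V were used together, with ATP5MC1 at 29.5 ± 3.03, ATP5MC2 at 49.8 ± 2.65 and ATP5MC3 at 44.9 ± 1.74 RPKM. UQCRHL, a copy of UQCRH without introns, was at 3.54 ± 0.743 RPKM, and since the copies are near-identical the split of reads between them is uncertain. COX4I2, COX6B2, COX8C, COX6A2 and COX7B2 had too few counts to be tested, and none of the other paralogs passed the test against PBS.

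Per length the MT members were far above the nuclear members, with a median of 2213 RPKM over all libraries against 17.4 RPKM for the 83 tested nuclear members. Among the nuclear members the range was 0.322 RPKM for NDUFA9 to 281 RPKM for ATP5F1B. The length used is the union of all annotated exons, which is 10391 bases for NDUFA9 and 19359 bases for NDUFA10. RPKM is too low where the RNA lacks part of these exons, so levels and rankings per length are uncertain. Of the 8 tested nuclear members under 5 CPM, 7 share exon bases with another annotated gene, against 38 of the 75 others. How reads in shared bases were counted is not given in the sources used here, which makes the levels of these genes uncertain.

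The summed nuclear members varied from library to library together with the ribosomal protein genes. Over the 15 libraries their summed CPM correlated with that of 82 cytosolic ribosomal protein genes at r = 0.97 and of 78 mitochondrial ribosomal protein genes at r = 0.98, and with that of the MT members at r = -0.16. These are descriptions over libraries that share the normalization, and the groups are mixed in them. EUC3 and SUC3 had the highest ribosomal protein sums, 79040 and 75960 CPM, against 47910 to 61150 CPM in all others. The part of this shared variation in the differences between groups was not tested.

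**Figure D5:**
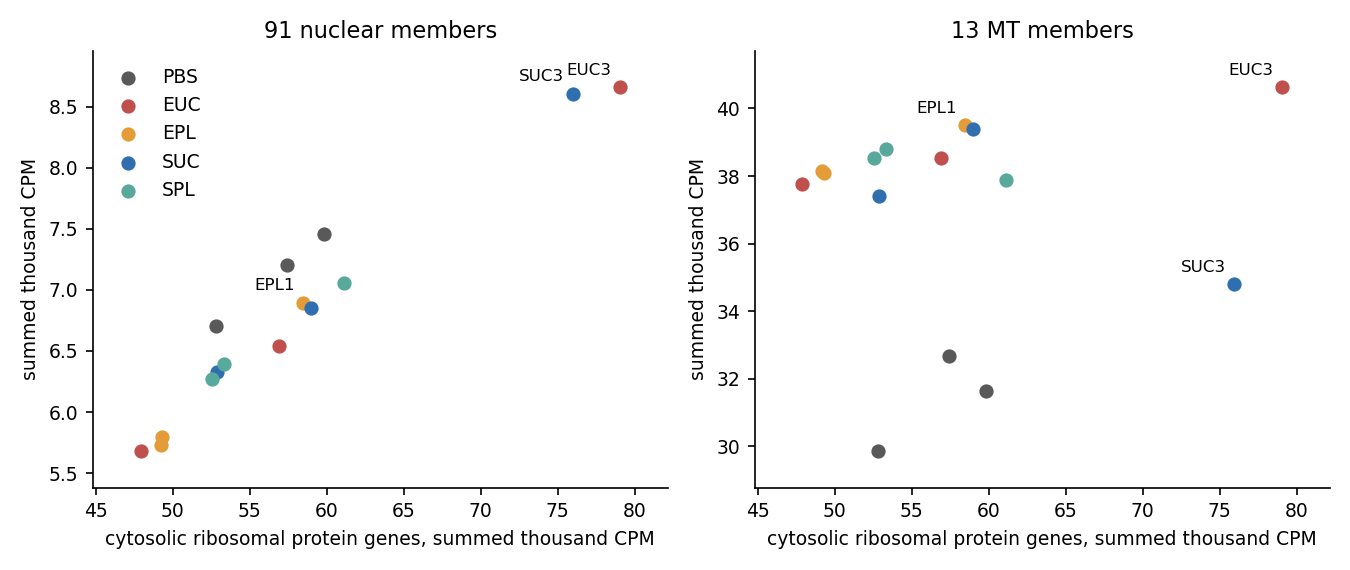
Summed CPM, in units of 1000, of the 91 nuclear members (left) and the 13 MT members (right) against that of 82 cytosolic ribosomal protein genes, 1 point a library, coloured by group, with the axes not starting at 0. The nuclear members follow the ribosomal protein genes (r = 0.97 over 15 libraries), and the 3 PBS libraries stand apart below in the plot of MT members.

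The BEV groups were also compared with each other. Between EPL and EUC 0 of the 96 tested members passed, as did 0.0% of all genes, with a smallest adjusted p of 0.947, which 77 members shared. Between SPL and SUC 0 passed, as did 0.00581% of all genes (1 gene), with a smallest adjusted p of 0.736 (NDUFA2). Between the E. coli and the S. aureus groups 0 passed against 3.87% of all genes, with a smallest adjusted p of 0.306 (NDUFV2), in edgeR's test throughout. DESeq2 gave 0 members in each of the 3 comparisons. At an unadjusted p of at most 0.05 there were 5 nuclear and 0 MT members between EPL and EUC, 2 and 1 between SPL and SUC, and 0 and 0 between the species, beside 3.51%, 5.81% and 17.0% of all tested genes. Without EUC3, EPL1 and SUC3, 9 members passed between the species, all lower with E. coli BEVs, beside 3.27% of all tested genes as lower.

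A missed threshold does not show that the groups were alike, and the intervals of single members are wide. The median log2 difference of the 83 nuclear members was -0.22 for EPL against EUC and -0.16 for SPL against SUC, with 4 and 5 of 83 above 0, beside medians of 0.0032 and -0.0098 over all genes. Each of these medians came close to 0 without 1 library. Without EUC3 the first median was -0.0060 with 39 of 83 above 0, and without SUC3 the second was -0.01 with 39 above 0. They were -0.11 and -0.01 without EUC3, EPL1 and SUC3. For the MT members these medians were -0.02 and 0.02, and the largest estimate was that of MT-ATP8 in SPL against SUC (-0.70 ± 0.23).

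The nuclear members are known to be regulated by the factors NRF-1, GABP (an ETS factor) and YY1, whose motifs are common in promoters of this gene class. RefSeq promoter windows of 300 bases on GRCh38.p14, 250 before and 50 after the start, were found for 71 of the 91 nuclear members, with 84 windows in all since 9 members have several starts. On either strand, the letters GCGCATGC of the NRF-1 core were in 17.9% of these windows and in 3.05% of all 35116 windows, the letters CCGGAAG of the ETS core in 26.2% and 10.3%, and the letters AAGATGGC of the YY1 core in 15.5% and 2.89%. At least 1 of the 3 was in 46.4% of members' windows and 14.9% of all. The windows of NDUFB4 and ATP5F1A are shown as those of called members that hold a core, and that of SDHB because it holds all 3. Capitals mark the matches. The windows lie at chr3:120596086-120596385 (plus strand), chr18:46098247-46098546 (minus strand, 1 of 2 starts of ATP5F1A) and chr1:17053983-17054282 (minus strand).
NDUFB4: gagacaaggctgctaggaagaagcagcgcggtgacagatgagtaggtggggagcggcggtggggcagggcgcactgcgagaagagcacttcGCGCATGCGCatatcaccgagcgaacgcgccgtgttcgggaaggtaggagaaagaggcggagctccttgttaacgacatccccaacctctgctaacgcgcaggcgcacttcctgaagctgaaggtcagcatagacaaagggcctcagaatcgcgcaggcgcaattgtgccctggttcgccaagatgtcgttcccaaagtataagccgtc
ATP5F1A: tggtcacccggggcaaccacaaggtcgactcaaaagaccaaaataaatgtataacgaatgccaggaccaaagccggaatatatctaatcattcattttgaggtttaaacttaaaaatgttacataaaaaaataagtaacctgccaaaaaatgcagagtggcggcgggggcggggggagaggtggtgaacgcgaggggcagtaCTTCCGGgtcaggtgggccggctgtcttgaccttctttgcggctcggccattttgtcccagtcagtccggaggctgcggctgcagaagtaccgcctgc
SDHB: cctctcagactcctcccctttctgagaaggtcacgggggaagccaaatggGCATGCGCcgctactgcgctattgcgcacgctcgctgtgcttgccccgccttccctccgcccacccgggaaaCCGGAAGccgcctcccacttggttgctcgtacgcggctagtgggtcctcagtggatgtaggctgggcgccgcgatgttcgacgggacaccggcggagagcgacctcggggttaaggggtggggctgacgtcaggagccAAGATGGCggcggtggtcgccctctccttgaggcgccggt
The capitals of NDUFB4 hold an NRF-1 core on each strand, which overlap, and its window was counted once. The mean log2 fold change over the 4 comparisons had a median of -0.10 in the 14 tested members with an NRF-1 core and -0.0044 in the 52 without, and of -0.0074 and -0.03 in the 21 with and the 45 without an ETS core. It was -0.05 in the 12 with and -0.01 in the 54 without a YY1 core. A match is a run of letters and not a measured binding site.

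Lists of genes around the chain were read in the same fit. Over all tested genes 16.5%, 16.0%, 12.4% and 13.3% passed as higher in EUC, EPL, SUC and SPL. As lower, 14.0%, 13.2%, 9.15% and 10.6% passed. These shares are the background for the counts of every list below. In a list of 50 assembly factors 49 were tested, and 5 passed as higher and 3 as lower in EUC, 2 and 5 in EPL, 3 and 2 for SUC, and 3 and 2 in SPL, with medians of -0.06, -0.18, -0.01 and -0.13. SCO2, which helps to place copper in complex IV, rose in all 4, from 2.09 to 4.29 CPM in PBS to 10.3 to 17.5 CPM in the BEV libraries, by 2.13 ± 0.23 in EUC (adjusted p = 7.53e-07 in edgeR's test) and by 2.04 to 2.14 in the others. Exon bases shared with other genes were determined for members only, so reads of an overlapping gene are an uncertainty for SCO2 and other list genes. COX11, another copper chaperone of complex IV, fell in all 4, by 0.50 ± 0.10 in EUC.

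Of 22 electron carriers and other inner membrane dehydrogenases, 3 passed as higher and 1 as lower in EUC, 3 and 4 in EPL, 3 and 1 for SUC, and 4 and 1 in SPL. GPD2, which feeds electrons from glycerol 3-phosphate to the quinone pool, had 62.5, 58.9 and 53.2 CPM in PBS and 127 to 191 CPM in the BEV libraries, and rose by 1.48 ± 0.11 in EUC, 1.56 ± 0.11 in EPL, 1.27 ± 0.11 for SUC and 1.30 ± 0.11 in SPL. SQOR, which feeds electrons from sulfide, rose by 1.07 to 1.40 in the 4 comparisons. UCP2, an uncoupling protein family member, fell in all 4, from 111 to 118 CPM in PBS to 67.1 to 89.8 CPM. CYCS, cytochrome c, had 196, 210 and 217 CPM in PBS and 225 to 330 CPM in the BEV libraries, at 0.23 to 0.39 without passing in any.

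A further list held 6 genes linked to inflammation or low oxygen: C15orf48, ACOD1, NOS2 and the members NDUFA4L2, COX4I2 and ATP5IF1. Of these, 3 were tested and ACOD1 passed. ACOD1 makes itaconate, an inhibitor of succinate dehydrogenase. It had 0 counts in PBS and 105, 93, 47 and 78 counts in EUC, EPL, SUC and SPL, which is at least 37.4-fold, 32.6-fold, 16.9-fold and 28.1-fold higher against a floor of 3 counts over the 3 PBS libraries. These limits cover counting error only. C15orf48, a paralog of NDUFA4, drew 37 counts and NOS2 22 counts in all libraries, too few to be tested.

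Of 34 genes of mitochondrial DNA maintenance and RNA, 1 passed as higher in each comparison, and 4, 3, 3 and 3 as lower in EUC, EPL, SUC and SPL. The gene that rose was PNPT1, an RNA-degrading enzyme of mitochondria, with 87.7, 91.3 and 88.7 CPM in PBS and 164 to 224 CPM in the BEV libraries, by 1.21 ± 0.08 in EUC, 1.16 ± 0.08 in EPL, 0.92 ± 0.08 for SUC and 0.94 ± 0.08 in SPL. POLG2, the accessory subunit of the mitochondrial DNA polymerase, fell by 0.96 ± 0.11 in EUC, and TOP1MT, a mitochondrial topoisomerase, by 0.57 ± 0.09. POLRMT, the polymerase that transcribes the MT members, had 149, 138 and 153 CPM in PBS and 111 to 144 CPM in the BEV libraries, at -0.33 to -0.25 without passing. TFAM and TFB2M, its initiation factors, were at 0.02 to 0.12 and -0.18 to 0.09, and POLG and TWNK, the polymerase and helicase of replication, at -0.10 to 0.03 and -0.18 to -0.07, all without passing.

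Of 12 nuclear regulators, 11 were tested, and 3 passed as higher and 2 as lower in EUC, 2 and 1 in EPL, 2 and 1 for SUC, and 3 and 1 in SPL. HIF1A, the factor of the hypoxia response, had 55.4, 50.5 and 52.1 CPM in PBS and 92.7 to 141 CPM in the BEV libraries and rose by 0.89 to 1.37, and TFEB, a factor of lysosome and mitochondrial turnover genes, rose by 1.08 to 1.28. MYC, a growth factor-responsive regulator, fell in all 4, with log2 fold changes of -1.03 to -0.88. Of the factors whose motifs were searched, GABPB1, a subunit of GABP, had means of 26.5 CPM in PBS, 35.6 CPM in EUC and 35.9 CPM in SPL and rose by 0.43 ± 0.11 and 0.44 ± 0.11 there (adjusted p = 0.00614 and 0.00615 in edgeR's test), and was at 0.33 in EPL and 0.37 for SUC without passing. YY1 fell by 0.27 ± 0.07 in EUC (adjusted p = 0.00374), from a mean of 205 to 170 CPM, and was at -0.24 to -0.19 in the others without passing. NRF1, which encodes NRF-1, GABPA, the other subunit of GABP, and PPRC1, ESRRA and PPARGC1B lay between -0.30 and 0.22 and did not pass, and PPARGC1A had 39 counts in all and was not tested.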

How the data were processed

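The 15 libraries of THP-1 cells were assigned to groups by their titles. RNA was extracted by the authors with Trizol, libraries were built with the NEB Next Ultra kit, and reads were aligned to hg38 with HISAT2. They deposited whole-number read counts per gene without normalization. The submitters' processing notes also name FastQC 0.11.5, HISAT2 2.1.0, StringTie 1.3.3b, DESeq 1.28.0 and featureCounts without their roles. How reads were counted (program, strand, annotation) is not stated there. All 15 columns were used, and 0 columns were left out.

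The deposited counts were analysed with edgeR 4.0.16 in R 4.3.3 (filterByExpr, TMM, glmQLFit and glmQLFTest, all 15 libraries in 1 fit, group only). Between 14399421 and 16637345 counts per library, with a median of 15831655, and 3 libraries a group set the precision, and the common biological coefficient of variation was 0.118. Benjamini-Hochberg adjustment covered 17198 genes. The threshold for passing was an adjusted p of 0.01, and DEGs also reached 1 in absolute log2 fold change. Standard errors follow from the F statistic of each gene. CPM used TMM-normalized library sizes. RPKM used the length of the union of a gene's exons in GENCODE release 44 on hg38, which held all 104 members. Figures were drawn with matplotlib.

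DESeq2 1.42.0, other scalings, filters and thresholds, fits of the compared groups alone, a replicate block and fits without single libraries were run as alternatives. A fit without EUC3, EPL1 and SUC3 and a fit with the exon length trend of each library removed (loess offsets, centred) were added after seeing the data. The scripts were checked on simulated data.

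Genes were named by a rule: all MT members, the most abundant nuclear member of each complex and those with the highest and lowest mean change, up to 5 called nuclear members per direction, set paralogs and regulators, and up to 2 genes per direction of each list that passed in all 4 comparisons. Further genes given as the lowest or highest of a range, as exceptions or as the smallest p were picked with their values in view. The members and lists were chosen with earlier results of these data known.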

Additional observations from a re-analysis of the deposited data

How the results depend on the processing

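The direction of the MT members held under most settings, and the numbers that passed did not. With DESeq2, 4 MT members passed in SUC, and 8 nuclear members in EPL and 2 in SPL. Of 37067 genes DESeq2 called 2956 as higher and 2336 as lower in EPL, 2341 and 1703 in SUC, and 2510 and 1911 in SPL. With RLE size factors or with scaling on genes other than the MT members, every count stayed within 1.5 times. At an adjusted p of at most 0.05, 7 MT members passed in SUC and 8 in SPL, and 8, 14, 1 and 4 nuclear members in EUC, EPL, SUC and SPL. The number of all genes at that threshold is not given here. Without a filter on low counts, 5 MT members passed in SUC, 14, 17, 7 and 5 nuclear members in EUC, EPL, SUC and SPL, and 1 member in SPL against SUC. Of 37067 genes in that fit, 3081, 2926, 2400 and 2502 passed as higher in EUC, EPL, SUC and SPL. As lower, 2616, 2483, 1738 and 1983 passed, and in SPL against SUC the numbers were 11 higher and 7 lower. With the compared groups alone, 1 MT member passed in EUC and 11 in SPL, and 1, 10 and 21 nuclear members in EUC, EPL and SPL. Over all genes, 2371 of 16036 passed as higher and 1912 as lower in EUC in these fits. The numbers were 2696 and 2355 of 16099 in EPL, and 3321 and 3214 of 15930 in SPL.

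Scaling by total counts moved the median of all genes to -0.16, -0.12, -0.11 and -0.12 in EUC, EPL, SUC and SPL, and 0, 1, 0 and 1 MT members passed as higher and 12, 16, 3 and 5 nuclear members as lower. Of all tested genes 20.9%, 18.9%, 13.4% and 15.5% passed as lower on that scale. Relative to that median the MT medians were 0.29, 0.29, 0.25 and 0.30. Without EUC3, EPL1 and SUC3, 12, 11, 13 and 11 MT members and 26, 30, 14 and 13 nuclear members passed, and 9 members between the species. With the exon length trend removed, 0, 1, 0 and 0 MT members and 11, 14, 3 and 5 nuclear members passed, and the MT medians were 0.13, 0.22, 0.08 and 0.19. Of all tested genes 17.5%, 16.4%, 13.5% and 14.2% passed as higher in that fit and 16.2%, 15.5%, 10.8% and 12.5% as lower. The cause of these moves was not tested.

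Leaving out 1 library gave 0 to 8 MT members in EUC, 0 to 5 in EPL, 0 to 6 in SUC and 1 to 5 in SPL. Nuclear members numbered 0 to 7, 0 to 10, 0 to 1 and 0 to 0. Of 17635 to 17722 tested genes, 2420 to 2813, 2335 to 2670, 1758 to 1925 and 1898 to 2031 passed as higher in these fits. As lower, 1886 to 2386, 1758 to 2272, 1176 to 1303 and 1313 to 1434 passed. The difference in the log2 ratio of MT to nuclear counts ranged over 0.25 to 0.51 in EUC, 0.48 to 0.59 in EPL, 0.13 to 0.40 in SUC and 0.37 to 0.47 in SPL. DEGs among members stayed at 0.

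The median of the nuclear members turned sign in EUC, from 0.07 to -0.13 without EUC3, -0.10 with total counts and -0.02 with the length trend removed, and in SUC, from 0.13 to -0.02 without SUC3. Of the MT members and the 6 nuclear members that passed, those whose estimates turned sign were MT members that had not passed in those comparisons. With total counts these were MT-ND5 in EUC (-0.0309) and SUC (-0.01), MT-ND4L in EUC (-0.0029) and SPL (-0.102) and MT-ATP8 in EPL (-0.086). With the length trend removed they were MT-ND4L in EUC (-0.0179) and SPL (-0.123), MT-ATP8 in EPL (-0.0386) and MT-ATP6 in SUC (-0.0182). Leaving out 1 library, MT-ND4L ranged over -0.0666 (without EUC1) to 0.394 in EUC, -0.0129 (without EPL2) to 0.354 in EPL, -0.0171 (without SUC1) to 0.539 in SUC and -0.0847 (without PBS3) to 0.116 in SPL, where it was also at -0.0802 without SPL1. MT-ND5 reached -0.0398 without EUC1 and -0.039 without SUC1, with highest values of 0.292 in EUC and 0.299 in SUC. MT-ATP8 in EPL ranged over -0.151 (without EPL3) to 0.328, with -0.127 without PBS1, -0.0637 without PBS3 and -0.0059 without EPL2, and in SPL over -0.328 to 0.133 (without PBS2).

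Replicate numbers did not pair the libraries: deviations of libraries with the same number correlated at -0.45 to 0.52 (median 0.02) and those with different numbers at -0.48 to 0.49. With a replicate block 1 nuclear member passed in EUC and 1 in SUC, MT members numbered 7, 6, 2 and 4, and no other count moved by over 1.5 times. Of 17198 tested genes, 2816, 2739, 2108 and 2283 passed as higher in EUC, EPL, SUC and SPL in that fit. As lower, 2410, 2248, 1570 and 1818 passed.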
